A study of Mus musculus with 8 samples.

Results

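Chromatin accessibility was described at the genes of 8 transcription factors that maintain hepatocyte identity: Hnf4a, Foxa1, Foxa2, Foxa3, Onecut1, Onecut2, Prox1 and Nr5a2. They were taken by name from the 55413 genes of the mouse annotation. Each gene was given a window of its body plus 20 kb on either side, and the ATAC-Seq intervals overlapping that window were assigned to it. Merging the intervals of all libraries gave 315767 regions, of which 275 lay in the 8 windows. Of these 275, 25 overlapped a promoter of the gene itself (within 1 kb of an annotated transcription start site, TSS), 17 overlapped a promoter of another gene and 233 were distal.

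Nucleosome-free DNA was mapped by bulk ATAC-Seq (open DNA is tagged by the enzyme Tn5) on nuclei of hepatocytes from C57BL/6 mice (C57BL/6J in the study's methods). The mice were 10 to 12 weeks old and ate a normal diet, and the study's text describes them as male. Hepatocytes were released by collagenase perfusion from undamaged liver (0 h) or at 48, 72 or 96 h after partial hepatectomy (PHx), an operation that takes out most of the liver and prompts the hepatocytes left behind to divide. Each of the 4 time points had 2 libraries. The study's text describes biological replicates from separate hepatocyte preparations, more at the earlier times than the libraries analysed here. The labels number the replicates without tying them to mice, so p-values measure only the spread between these libraries. The 3 comparisons of a PHx time point with 0 h share the same 0 h libraries. Fewer cells with an open site and less opening per cell cannot be told apart in such bulk samples, and no transcript was measured in them.

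HNF4A is a nuclear receptor that holds much of the hepatocyte programme in place, and its gene has a promoter used in adult liver (P1) and an upstream promoter known from fetal liver and pancreas (P2). FOXA1, FOXA2 and FOXA3 are forkhead proteins that can bind nucleosomal DNA and open it for other factors. ONECUT1 (HNF6) and ONECUT2 are cut-homeodomain proteins of liver and bile duct development. PROX1 is a homeodomain protein of hepatoblasts and hepatocytes that often acts as a corepressor, and NR5A2 (LRH-1) is a nuclear receptor acting on bile acid and cholesterol genes. These factors are known to bind at one another's genes, where promoters and distal sites form a cross-regulating network.

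The sequences printed here are the promoters of both nuclear receptor genes, where the start sites and their motifs can be read, and the distal or intronic sites to which the results return. All are from RefSeq GRCm38.p6, the build called mm10. Capitals mark a match, on either strand, to 1 of 6 motifs, which are CAAAGTCCA (HNF4), TGTTTAC (FOXA), TATTGAT (ONECUT), CAAGGTCA (NR5A2), TTGCGCAA (C/EBP) and TGANTCA (AP-1). None of these motifs contains another. A match describes the letters and is not a measured binding site.

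The first set, shown because these promoters carry the start sites compared over time, holds the 250 bases before a TSS on the strand of the gene. It covers Hnf4a P2 (chr2:163506558-163506807, plus strand), Hnf4a P1 (chr2:163546938-163547187, plus strand, before the last of its 3 TSSs) and the 5′ promoter of Nr5a2 (chr1:136960449-136960698, minus strand).
Hnf4a P2: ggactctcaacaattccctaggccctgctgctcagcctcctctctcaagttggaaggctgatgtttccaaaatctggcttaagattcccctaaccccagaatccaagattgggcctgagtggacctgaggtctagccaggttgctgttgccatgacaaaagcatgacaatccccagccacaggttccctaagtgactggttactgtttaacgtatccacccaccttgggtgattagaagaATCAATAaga
Hnf4a P1: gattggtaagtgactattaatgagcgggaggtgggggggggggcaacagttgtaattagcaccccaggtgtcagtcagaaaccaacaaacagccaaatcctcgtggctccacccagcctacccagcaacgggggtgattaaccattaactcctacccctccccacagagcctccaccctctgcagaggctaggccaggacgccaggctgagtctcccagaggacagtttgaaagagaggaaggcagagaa
Nr5a2 5′ promoter: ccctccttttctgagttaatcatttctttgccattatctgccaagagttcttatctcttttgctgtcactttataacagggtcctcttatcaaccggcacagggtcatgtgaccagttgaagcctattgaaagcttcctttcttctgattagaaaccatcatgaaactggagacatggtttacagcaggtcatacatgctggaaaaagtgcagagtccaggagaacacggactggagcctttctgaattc
The P2 window held an ONECUT match starting at −10 from its TSS. The P1 and Nr5a2 windows held none of the 6 motifs. Among 32851 RefSeq promoter windows of 250 bases, 1.86% held the ONECUT motif.

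The second set holds the 200 bases around the summits of 7 regions on the plus strand, shown because each was the best ranked distal site of its gene, ranked apart between 0 h and PHx, or held the match of a factor described here. Nr5a2 is represented by an intron site 610 bases inside its 5′ TSS (chr1:136959670-136959869), an intron site 65353 bases past its nearest TSS (chr1:136875130-136875329) and an intron site 80853 bases past its nearest TSS (chr1:136859630-136859829). Hnf4a, Foxa2 and Foxa3 are represented by sites downstream of the gene (chr2:163580387-163580586, chr2:148024386-148024585 and chr7:19010607-19010806), and Prox1 by an upstream site at −11404 bases (chr1:190182018-190182217).
Nr5a2 first intron: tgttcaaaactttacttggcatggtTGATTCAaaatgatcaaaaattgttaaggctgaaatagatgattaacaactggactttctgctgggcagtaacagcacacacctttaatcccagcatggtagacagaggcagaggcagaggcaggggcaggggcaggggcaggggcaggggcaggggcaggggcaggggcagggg
Nr5a2 intron, AP-1 match: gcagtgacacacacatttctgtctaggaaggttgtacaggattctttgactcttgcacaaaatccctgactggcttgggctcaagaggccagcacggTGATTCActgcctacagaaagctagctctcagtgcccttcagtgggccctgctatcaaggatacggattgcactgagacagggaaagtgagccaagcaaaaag
Nr5a2 intron, NR5A2 match: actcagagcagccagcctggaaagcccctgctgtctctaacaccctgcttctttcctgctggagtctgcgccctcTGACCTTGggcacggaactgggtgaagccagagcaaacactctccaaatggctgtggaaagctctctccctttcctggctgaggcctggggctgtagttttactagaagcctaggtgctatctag
Hnf4a downstream: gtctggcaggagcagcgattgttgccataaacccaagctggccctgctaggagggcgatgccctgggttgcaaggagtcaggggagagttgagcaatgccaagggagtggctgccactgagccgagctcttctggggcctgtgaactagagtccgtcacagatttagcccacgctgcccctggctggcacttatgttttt
Foxa2 downstream: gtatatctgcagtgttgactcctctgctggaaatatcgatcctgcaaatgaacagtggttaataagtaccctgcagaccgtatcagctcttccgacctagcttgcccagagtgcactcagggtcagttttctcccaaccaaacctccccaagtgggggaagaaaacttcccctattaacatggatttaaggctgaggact
Foxa3 downstream: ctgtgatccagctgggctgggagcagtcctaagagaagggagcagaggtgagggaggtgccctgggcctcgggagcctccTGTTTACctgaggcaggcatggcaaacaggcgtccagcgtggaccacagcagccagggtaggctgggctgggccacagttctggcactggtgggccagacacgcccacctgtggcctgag
Prox1 upstream: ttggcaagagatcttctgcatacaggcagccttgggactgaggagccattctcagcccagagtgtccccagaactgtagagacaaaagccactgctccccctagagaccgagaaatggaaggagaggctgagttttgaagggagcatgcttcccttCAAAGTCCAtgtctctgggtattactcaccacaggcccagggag
The Nr5a2 first intron window held an AP-1 match and ends in a short tandem repeat. The Foxa3 window held 1 FOXA match and the Prox1 window an HNF4 match. The Hnf4a and Foxa2 windows, from the strongest distal site of each gene, held none of the 6 motifs.

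Accessibility was read as rank. Within each library the distinct intervals were ordered by the −log10 p of the peak caller, so rank 1 is the strongest interval and a smaller rank number means stronger, or higher ranked. The 8 lists held 105206 to 154577 distinct intervals covering 42.0 to 62.9 Mb, and at rank 50000 the −log10 p lay between 8.05 and 15.2, so the same rank did not stand for the same significance in every library. Read counts are not among the values, so the depth behind a rank is unknown. The name of the 72 h replicate 2 list carries a different sequencing mark from those of the other 7 lists. Promoters of 7 hepatocyte markers (Alb, Ttr, Apoa1, Apob, Serpina1a, Cps1 and Tat) were listed in 6 to 8 libraries each. None of the 7 was in the top 50000 in all 8 lists. The 3 lymphocyte markers (Ptprc, Cd3e and Cd79a) were listed in no library. Of the 4 Kupffer cell markers, Cd68 was listed in 8 libraries, Clec4f in 4, and Adgre1 and Csf1r in 1 each, and none reached the top 50000 in any library. Promoters of Stab2 (endothelial), Lrat and Reln (stellate) and Epcam (cholangiocyte) were in the top 50000 in all 8 lists, while the cholangiocyte marker Krt19 was in none. Over the 16029 coding promoters in all 8 lists, 28.2% ranked lower and 17.0% higher (48 h), 30.5% lower and 15.8% higher (72 h), and 20.2% lower and 13.9% higher (96 h) without overlap with 0 h. Of the 7 hepatocyte marker promoters, 5 were weaker at 48 h without overlap with 0 h, 6 at 72 h and 3 at 96 h, and none ranked higher at any of these times. Only 3 of these 7 were in all 8 lists, and an unlisted library was counted as weakest. The marker counts and the shares over coding promoters are thus of unlike sets. Of 4 stellate marker promoters, 2 ranked higher at 48 h, 1 at 72 h and 1 at 96 h, and none ranked lower. Of the Kupffer cell markers 1 ranked higher at 48 h and 1 lower at 72 h, 1 endothelial marker ranked lower at 48 h and 1 at 72 h, and no cholangiocyte marker was apart from 0 h. The part of these shifts in the results for the 8 genes was not tested.

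The 8 genes carried accessible sites that recurred from library to library. Of their 275 regions, 79 (28.7%) were in all 8 lists (recurrent regions), against 18.2% of all regions, and 92 (33.5%) were in a single list, against 52.5% of all regions. In the 79 recurrent regions the summit lay in an intron in 46, between genes in 23, in an untranslated region in 7 and in a noncoding exon in 3. The median of their median ranks was 38727, against 30379 for the recurrent regions of the whole genome, so they recurred without being stronger. Nr5a2 had 24 recurrent regions, or 1.52 per 10 kb of window, a density above that of 98.5% of 21938 coding genes, and Hnf4a had 15, or 1.41 per 10 kb, above 97.6%. The median coding gene had 0.42 per 10 kb. Foxa2 (1.36 per 10 kb), Foxa3 (1.19) and Foxa1 (1.08) followed, and Prox1 (0.971), Onecut1 (0.859) and Onecut2 (0.792) had the lowest densities, with Onecut2 still above 78.4% of genes.

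**Figure D1:**
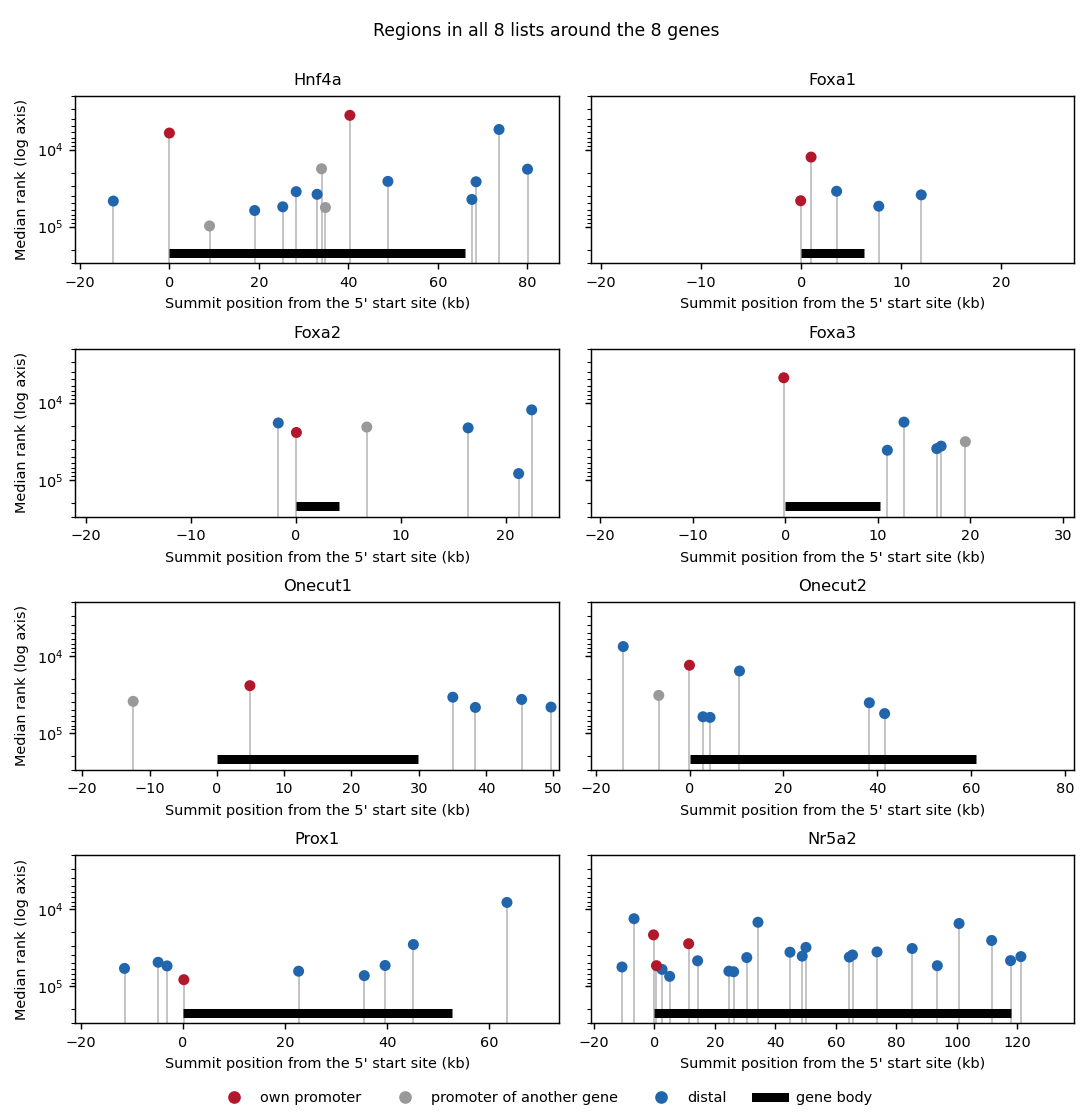
Positions of the 79 recurrent regions along the 8 genes, with the distance of the summit from the 5′ start site in kb on the x axis and the median rank over the 8 libraries on an inverted log y axis, so that stronger sites are higher. Hnf4a and Nr5a2 carried 15 and 24 regions spread over the gene body and its flanks, whereas Foxa1 carried 5.

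The strongest promoter of each gene gave an order that can be compared with other coding genes. Hnf4a P1 was first, with a median rank of 3604 (1918 to 5614 over the 8 libraries), and 80.2% of 13598 coding genes with a promoter in every list had a weaker one. Foxa3 was next at 4751 (2613 to 7695), followed by Foxa1 at 12534.5 (8310 to 20763) and Onecut2 at 13224.5 (3339 to 27126). Nr5a2 stood at 21624.5 (9643 to 53223), Onecut1 at 24334.5 (18596 to 31451) and Foxa2 at 24337 (17301 to 37866). The place of Onecut1 is that of a promoter of a noncoding transcript, since its 5′ promoter was missing from 1 list and had a median of 33842.5 with that library counted as weakest. Prox1 was last at 66467.5 (38832 to 116173), and only 1.83% of these 13598 coding genes had a weaker promoter. Genes whose promoter was missing from a list were not in this comparison. Neighbours in this order overlapped in their ranges except Foxa3 and Foxa1, and Foxa2 and Prox1, where the stronger gene led in 8 of 8 libraries. Hnf4a led Foxa3 in 6 libraries, Foxa1 led Onecut2 in 4, Onecut2 led Nr5a2 in 7, Nr5a2 led Onecut1 in 4 and Onecut1 led Foxa2 in 4, so the order of these neighbours was not fixed from library to library.

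**Figure D2:**
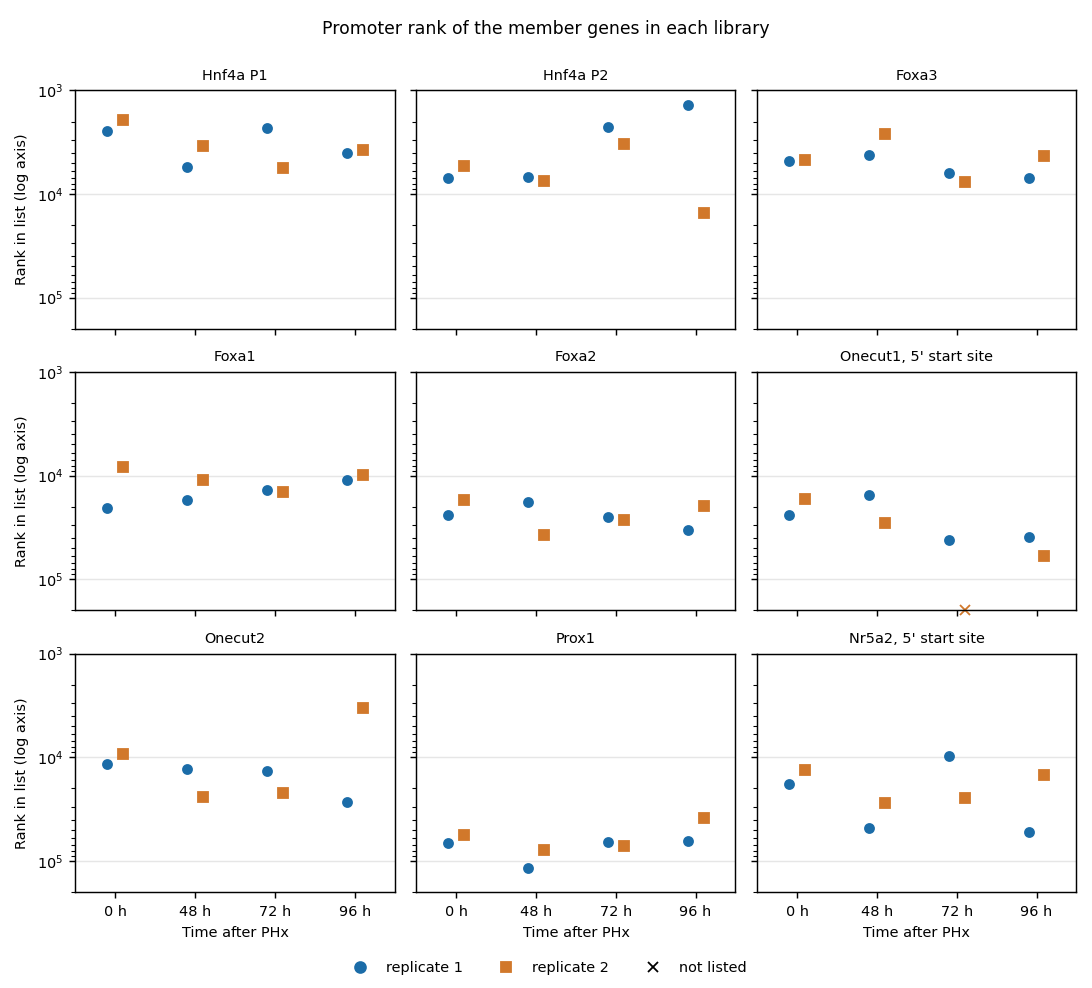
Rank of the strongest interval within 1 kb of each start site, by hours after PHx, on an inverted log axis, with circles for replicate 1, squares for replicate 2 and crosses for libraries without an interval. Hnf4a P1 stays between ranks 1918 and 5614, while the Prox1 promoter lies between 38832 and 116173 and the 5′ Onecut1 promoter has no interval in 72 h replicate 2.

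At Hnf4a (chromosome 2, 163506808 to 163572910, plus strand) both promoters were open in hepatocytes of undamaged liver and stayed open after PHx. The adult P1 promoter ranked 2492 and 1918 (0 h), 5443 and 3415 (48 h), 2324 and 5614 (72 h), and 4029 and 3793 (96 h). Both 48 h and both 96 h libraries thus ranked P1 lower than either 0 h library, whereas the 72 h libraries overlapped with 0 h. The P2 promoter, 40.4 kb upstream, ranked 6955 and 5330 (0 h), 6903 and 7548 (48 h), 2256 and 3300 (72 h), and 1396 and 15155 (96 h). It ranked higher at 72 h, with no overlap with 0 h, and the 96 h libraries lay far apart. P1 was stronger than P2 in 5 of 8 libraries. On the log2 scale of fold enrichment over local background, quantile-normalized and fitted with limma over all 8 libraries, the P1 difference from 0 h was −0.13 ± 0.26 (SE, 2 libraries a time point) at 48 h and −0.16 ± 0.26 at 72 h. The P2 difference was 0.20 ± 0.25 at 48 h (0.044 when 0 h replicate 1 was left out, 0.36 when 0 h replicate 2 was) and −0.03 ± 0.25 at 72 h. None of these differences exceeded its SE. A further TSS at position 163550083 had an interval in 2 libraries only, at ranks 66975 (0 h replicate 2) and 75197 (96 h replicate 2).

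The strongest distal region of Hnf4a lay downstream of the gene (chr2:163580145-163581039), between genes, with its summit 30404 bases past the nearest Hnf4a TSS. It ranked 11572 and 5185 (0 h), 5809 and 2315 (48 h), 5911 and 4076 (72 h), and 4528 and 8402 (96 h), and every PHx time overlapped with 0 h. Its strength was like that of the promoters, with a median rank of 5497. Inside the gene, between P2 and P1, lay a pair of weaker regions that ranked higher in all 6 PHx libraries than in both 0 h libraries, as did 4.48% of all 57473 regions found in every list, and they are named because of that. The first (chr2:163525622-163526633), in an intron shared with the antisense gene Hnf4aos, ranked 85372 and 103747 (0 h), 66298 and 25752 (48 h), 44038 and 56565 (72 h), and 57150 and 72301 (96 h). Its log2 difference was 1.23 ± 0.30 at 48 h, 0.90 ± 0.30 at 72 h and 0.70 ± 0.30 at 96 h, with a limma adjusted p of 0.345 at 48 h. The second (chr2:163531992-163532438) ranked 75040 and 61517 (0 h), 39516 and 58300 (48 h), 52271 and 48694 (72 h), and 39057 and 58423 (96 h), with log2 differences of 0.54 ± 0.26, 0.38 ± 0.26 and 0.58 ± 0.26. Its 48 h difference ranged from 0.30 to 0.81 and its 72 h difference from 0.31 to 0.69 over the alternatives. Neither passed an adjusted p of 0.05. Across other processing choices the 48 h difference of the first ranged from 0.83 to 2.03. These ranges include the scale of −log10 p, whose unit is not that of fold enrichment.

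At Nr5a2 (chromosome 1, 136842571 to 136960448, minus strand) the 5′ promoter varied widely among libraries. It ranked 18325 and 13315 (0 h), 48563 and 27922 (48 h), 9643 and 24924 (72 h), and 53223 and 14852 (96 h). Both 48 h libraries ranked it lower than both 0 h libraries, while the 72 h and 96 h libraries overlapped with 0 h. The log2 difference of the region upstream of the TSS was −0.41 ± 0.32 at 48 h, −0.23 without 48 h replicate 1 and −0.97 on the scale of −log10 p. In 0 h replicate 2 the strongest interval of this promoter was centred inside the first intron, and that intron region behaved differently from the promoter proper. A promoter at the internal TSSs between 136949562 and 136949173 ranked 29978 and 38290 (0 h), 35666 and 16342 (48 h), 21749 and 26336 (72 h), and 21839 and 35290 (96 h). It was higher in both 72 h libraries, with a log2 difference of 0.27 ± 0.26. The remaining internal TSSs were weak, with ranks of 46509 to 89437 in 7 libraries at position 136953630 and of 101554 and 94460 in 2 libraries at position 136940583.

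The Nr5a2 first intron region (chr1:136959338-136960027), 610 bases past the 5′ TSS and named because its ranks separated 0 h from all PHx libraries, ranked 19174 and 13315 (0 h). After PHx it ranked 58879 and 58101 (48 h), 50350 and 62987 (72 h), and 62534 and 28058 (96 h). All 6 PHx libraries lay below both 0 h libraries. Its log2 difference was −0.90 ± 0.27 at 48 h, −0.87 ± 0.27 at 72 h and −0.55 ± 0.27 at 96 h, with a limma adjusted p of 0.354 at 48 h. Its 48 h difference ranged from −1.85, on the scale of −log10 p, to −0.75 over the alternatives that gave a value. Among those on fold enrichment the lowest was −1.04, without 0 h replicate 1. The 96 h difference ranged from −1.34 to −0.22, with the scale of −log10 p again included. An intron region in the middle of the gene (chr1:136895679-136896755) also separated the groups, ranking 31577 and 30603 (0 h), 46971 and 48258 (48 h), 44918 and 45777 (72 h), and 38996 and 35754 (96 h). Its replicates were close to each other at every time, and its log2 differences were −0.44 ± 0.23, −0.39 ± 0.23 and −0.14 ± 0.23. The opposite direction was seen at the intron region with an AP-1 match printed above (chr1:136874605-136875760), which was chosen for its size of difference after the values were seen. It ranked 57856 and 82492 (0 h), 20491 and 15867 (48 h), 28963 and 32697 (72 h), and 32255 and 63575 (96 h). It was higher in every 48 h and 72 h library than in both 0 h libraries, with 96 h replicate 2 back among the 0 h values. Its log2 difference of 1.28 ± 0.28 at 48 h had the smallest p of the 79 regions in limma (unadjusted 0.000603, adjusted 0.341). Over the alternatives, the scale of −log10 p included, this difference ran from 1.04 to 2.25.

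The strongest distal region lay upstream of the gene (chr1:136966086-136967622), at −6738 bases from the TSS, and ranked 12591 and 13283 (0 h), 13750 and 28863 (48 h), 12853 and 13410 (72 h), and 12884 and 13655 (96 h). Both 48 h libraries were lower than both 0 h libraries, but apart from 48 h replicate 2 the values lay close together. The intron region with the NR5A2 match (chr1:136859542-136860676) ranked 14656 and 27296 (0 h), 6466 and 35578 (48 h), 18431 and 14346 (72 h), and 9888 and 16149 (96 h), and its time points overlapped. Over the 24 recurrent Nr5a2 regions, 2 were above and 9 below the 0 h range in both 48 h libraries, 3 above and 7 below it at 72 h, and 2 above and 5 below it at 96 h. The shares of all recurrent regions were 19.7% above and 24.2% below (48 h), 19.5% above and 22.7% below (72 h) and 16.3% above and 19.6% below (96 h). The median log2 differences of the 24 were −0.13, −0.013 and −0.030.

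**Figure D3:**
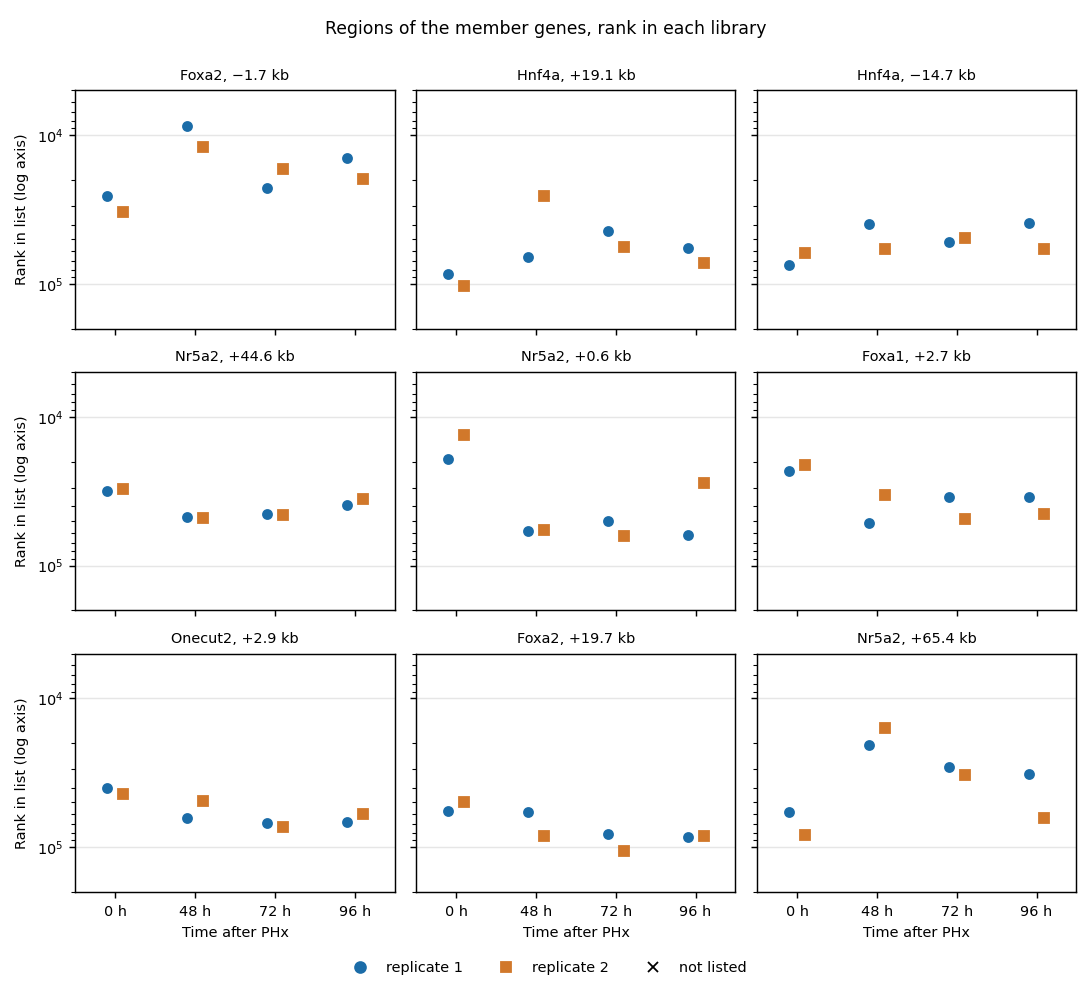
Ranks by hours after PHx, on inverted log axes with circles for replicate 1 and squares for replicate 2, of the 8 recurrent regions whose 0 h and PHx libraries did not overlap and of the Nr5a2 intron region with an AP-1 match, each titled by its gene and the distance of its summit from the nearest start site of that gene. The Nr5a2 first intron region lies at ranks 13315 and 19174 (0 h) and between 28058 and 62987 after PHx.

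Of the forkhead genes, Foxa3 (chromosome 7, 19013284 to 19023538, minus strand) had the strongest promoter. It ranked 4813 and 4689 (0 h), 4188 and 2613 (48 h), 6258 and 7695 (72 h), and 7017 and 4256 (96 h). The 48 h libraries were both higher and the 72 h libraries both lower than either 0 h library, yet the log2 difference was 0.22 ± 0.26 at 48 h and 0.06 ± 0.26 at 72 h. Leaving out 48 h replicate 2 gave 0.075 at 48 h, leaving out 0 h replicate 1 gave 0.10, and it was 0.34 when 0 h replicate 2 was left out, 0.37 when 48 h replicate 1 was and 0.44 in windows of 200 bases around the summits. The same interval overlapped the promoter of Sympk, whose nearest TSS was 839 bases away, so the value cannot be given to Foxa3 alone. Its best distal region (chr7:19010474-19010931), downstream and holding the printed FOXA match, ranked 12050 and 17480 (0 h), 39359 and 26689 (48 h), 18267 and 7613 (72 h), and 18242 and 17303 (96 h). This region was lower in both 48 h libraries (log2 difference −0.47 ± 0.25, limma adjusted p = 0.559) and overlapped with 0 h at 72 h and 96 h. Across the 6 recurrent Foxa3 regions, 4 ranked lower at 72 h and none higher, against 22.7% lower and 19.5% higher over all recurrent regions. Their median log2 difference was −0.19.

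The Foxa1 promoter (chromosome 12, gene at 57540628 to 57546916, minus strand) ranked 20763 and 8310 (0 h), 17335 and 11056 (48 h), 13920 and 14257 (72 h), and 11149 and 9898 (96 h). The 0 h libraries lay farther apart than those of any PHx time, and no time point separated from 0 h. The best distal region of Foxa1 (chr12:57542957-57543529), in its intron, ranked 23005 and 20961 (0 h), 51851 and 33321 (48 h), 34718 and 48406 (72 h), and 34794 and 45294 (96 h). All PHx libraries ranked it lower, and the log2 differences in fold enrichment were −0.29 ± 0.25, −0.27 ± 0.25 and −0.24 ± 0.25 at the 3 times. Other processing choices, among them the scale of −log10 p with its different unit, gave −0.90 to −0.10 at 48 h and −0.91 to −0.12 at 72 h.

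The Foxa2 promoter (chromosome 2, gene at 148042877 to 148046969, minus strand) ranked 23815 and 17301 (0 h), 17972 and 37866 (48 h), 24859 and 26755 (72 h), and 33764 and 19833 (96 h). By rank, 72 h was the only time at which both libraries lay outside the 0 h range, with a log2 difference of −0.17 ± 0.27. One library each of 48 h and 96 h lay farther outside it. By percentile within the list the 72 h libraries overlapped with 0 h, at 82.3 and 82.7 against 81.2 and 83.6. A region at −1673 bases from the 5′ TSS (chr2:148048312-148049250), named because its ranks separated the groups, was weaker than the promoter in both 0 h libraries and stronger than it in all 6 PHx libraries. It ranked 25812 and 32974 (0 h), 8676 and 11998 (48 h), 22479 and 16898 (72 h), and 14234 and 19717 (96 h). The log2 difference was largest at 48 h, at 0.85 ± 0.24 (limma adjusted p = 0.348), and was 0.29 ± 0.24 at 72 h and 0.48 ± 0.24 at 96 h. The downstream region printed above (chr2:148024326-148024916), which lay in an intron of 9030622O22Rik, was the strongest distal one, at 24062 and 9849 (0 h), 8712 and 13434 (48 h), 16788 and 11345 (72 h), and 16838 and 10549 (96 h). Its time points overlapped. A weaker region next to it (chr2:148025431-148025893), named for the same reason, ranked 56746 and 49385 (0 h), 58125 and 83994 (48 h), 82066 and 106331 (72 h), and 85789 and 84118 (96 h), with log2 differences of −0.14 ± 0.27, −0.41 ± 0.27 and −0.20 ± 0.27.

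At Onecut1 (chromosome 9, 74861921 to 74891781, plus strand) the 5′ promoter ranked 23853 and 16650 (0 h), 15403 and 28457 (48 h) and 39228 and 60028 (96 h). At 72 h it ranked 41563 in replicate 1 and was not listed in replicate 2, the library with the longest list. It was thus weaker than at 0 h in every 72 h and 96 h library, counting the unlisted one as weakest, and because it was missing from a list it could not be fitted with limma. The promoter of a noncoding transcript starting at 74866484 was steadier, with ranks of 25872 and 22797 (0 h), 29752 and 22430 (48 h), 21118 and 18596 (72 h), and 31451 and 30508 (96 h). By rank it was higher than 0 h at 72 h and lower at 96 h. The log2 difference in fold enrichment was 0.07 ± 0.31 at 72 h and 0.20 ± 0.31 at 96 h, so at 96 h rank and fold enrichment pointed opposite ways. The best distal region of the gene (chr9:74896520-74897294), downstream, ranked 30615 and 20548 (0 h), 47931 and 52494 (48 h), 38082 and 27756 (72 h), and 50892 and 27559 (96 h). It was lower in both 48 h libraries, with a log2 difference of −0.34 ± 0.30.

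The Onecut2 promoter (chromosome 18, gene at 64340020 to 64400987, plus strand) ranked 11689 and 9383 (0 h), 12925 and 24198 (48 h), 13524 and 21988 (72 h), and 27126 and 3339 (96 h). Both 48 h and both 72 h libraries were lower than either 0 h library, and the 96 h replicates spanned the widest range of any time. The log2 difference was −0.12 ± 0.33 at 48 h and −0.21 ± 0.33 at 72 h. Its strongest distal region (chr18:64325274-64326229), at −14110 bases in an intron of St8sia3os, ranked between 4377 and 9434 in all 8 libraries, with 0 h ranks of 8069 and 8523 and stronger 72 h ranks of 7075 and 5886. An intron region 2869 bases past the TSS (chr18:64342724-64343135), named because its ranks separated the groups, ranked 40289 and 44046 (0 h), 63665 and 48596 (48 h), 68575 and 72850 (72 h), and 67696 and 59466 (96 h), with log2 differences of −0.09 ± 0.23, −0.34 ± 0.23 and −0.24 ± 0.23.

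Prox1 (chromosome 1, 190118035 to 190170714, minus strand) combined a weak promoter with a strong downstream region. The promoter ranked 67542 and 56432 (0 h), 116173 and 78458 (48 h), 65393 and 71848 (72 h), and 64019 and 38832 (96 h), and reached the top 50000 in 1 library. Both 48 h libraries were lower than both 0 h libraries. At 72 h the ranks came from intervals centred 1729 and 1219 bases past the first TSS, near its last TSS, and in 48 h replicate 2 the rank came from one centred at −291, so these 3 are not ranks of the region covering the first TSS. For that region the log2 difference was −0.49 ± 0.25 at 48 h, −0.56 ± 0.25 at 72 h and 0.27 ± 0.25 at 96 h, with a limma unadjusted p of 0.0467 at 72 h and an adjusted p of 0.788. Its 48 h value ranged from −0.13 with regions in at least 2 lists, and −0.16 with median centring, to −1.21 on the scale of −log10 p. That region overlapped the antisense gene Prox1os, and ATAC-Seq does not tell the strands apart. The distal region downstream of the gene (chr1:190105885-190107495) ranked 13931 and 5607 (0 h), 6566 and 4269 (48 h), 9159 and 15616 (72 h), and 27998 and 7265 (96 h), with a median of 8212, and its time points overlapped. The upstream region with the HNF4 match (chr1:190181880-190182384) ranked 81166 and 57627 (0 h), 21957 and 78586 (48 h), 30040 and 46161 (72 h), and 71882 and 60044 (96 h). It was higher in both 72 h libraries, with a log2 difference of 0.55 ± 0.38.

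Across the 79 recurrent regions, limma called none changed at an adjusted p under 0.05 at 48, 72 or 96 h or over all PHx times together, and it called 0% of the 57473 regions tested in each of these comparisons. At an unadjusted p under 0.05, 6 of the 79 were higher and 2 lower at 48 h, against 4.90% and 4.99% of all regions tested. At 72 h 2 were higher and 2 lower (3.62% and 2.66% of all), at 96 h 2 were higher and none lower (3.06% and 2.63%), and over all PHx times 4 were higher and 1 lower (4.39% and 3.36%). At 48 h the members' shares were 7.59% and 2.53%, and the 8 members of either direction compare with 9.89% of all regions tested. The other 18 ways of processing the lists also called 0 of the regions tested. At 48 h they left from 3 of 32 members (against 10.2% of all regions in that fit) to 16 of 183 (against 8%) under an unadjusted p of 0.05. Among the settings that kept all 8 libraries, the members stood farthest above all regions on the scale of −log10 p, with 15 of 79 against 11%. Median centring followed, with 12 of 79 against 10.5%. Single libraries moved the smaller counts of members, and in part the share of all regions with them. Leaving out 0 h replicate 2 took the 72 h count from 4 to 0 while the share of all regions went from 6.28% to 3.14%, and it took the count over all PHx times from 5 to 2 while that share went from 7.75% to 3.07%. With 0 h replicate 1 left out, 3 members passed over all PHx times (8.45% of all regions) and 3 in place of 2 at 96 h (6.76% of all, against 5.68%). With 72 h replicate 1 left out, 2 passed at 72 h (5.68% of all). At 96 h 7 passed when 96 h replicate 2 was left out (5.99% of all) and 1 when 72 h replicate 2 was (5.16% of all). The median log2 difference over the 79 regions was 0.029 at 48 h, −0.0091 at 72 h and 0.041 at 96 h, against 0.0026, −0.016 and −0.0047 over all regions tested. The 8 regions with a 48 h unadjusted p under 0.05 included 3 at Nr5a2, 2 at Prox1 and 1 each at Hnf4a, Foxa1 and Foxa2, and those not described above had log2 differences between −0.57 and 0.65.

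**Figure D4:**
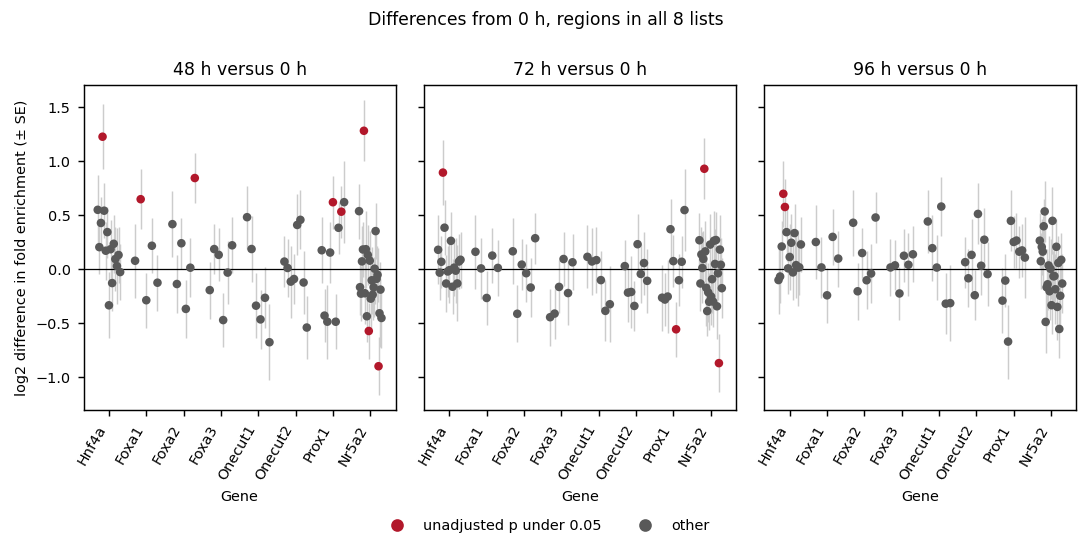
Log2 difference in fold enrichment from 0 h for the recurrent regions of each gene at 48, 72 and 96 h, with bars of ± 1 SE from limma. Red points have an unadjusted p under 0.05, which 8 regions reach at 48 h, 4 at 72 h and 2 at 96 h, and the points farthest from 0 are the Nr5a2 and Hnf4a intron regions at 48 h (1.28 and 1.23).

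Ranks that did not overlap between both libraries of a PHx time and both 0 h libraries were counted in the same way. At 48 h 13 of the 79 regions ranked higher and 21 lower, against 19.7% and 24.2% of all regions tested. At 72 h the numbers were 11 higher and 22 lower (19.5% and 22.7% of all), and at 96 h 9 higher and 17 lower (16.3% and 19.6%). Without 72 h replicate 2, whose list name differs, 72 h replicate 1 alone ranked 17 higher and 36 lower, against 33.3% and 37.7% of all, an alternative added after the data were seen. Over all PHx times 3 ranked higher and 5 lower in every library (4.48% and 6.07% of all), and these are the 8 regions described above. As shares of the 79, the higher counts were 16.5%, 13.9%, 11.4% and 3.80%, each below its background, and the lower counts were 26.6%, 27.8%, 21.5% and 6.33%, each slightly above it.

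Of the 10 promoters listed in all 8 libraries, 1 (Foxa3) ranked higher at 48 h without overlap with 0 h and 4 (Hnf4a P1, Onecut2, Prox1 and the 5′ promoter of Nr5a2) ranked lower, against 17.0% and 28.2% of coding promoters. At 72 h 3 ranked higher (Hnf4a P2, the second Onecut1 promoter and the internal Nr5a2 promoter) and 3 lower (Foxa2, Foxa3 and Onecut2), against 15.8% and 30.5%. By percentile within the list 4 were higher and 2 lower at 72 h, as Foxa2 overlapped with 0 h and Prox1 was higher, and intervals within 500 bp of the TSS also gave 4 and 2. At 96 h none ranked higher and 2 lower (Hnf4a P1 and the second Onecut1 promoter), against 13.9% and 20.2%. No promoter kept 1 direction in all 6 PHx libraries (4.17% of coding promoters were higher and 7.56% lower in all 6). Lower ranks were common at coding promoters in general, and 1 of these 10 promoters alone makes 10.0%, so no departure from the background can be read from the counts.

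Presence and absence in the lists was examined over all 275 regions, including the 196 that were missing from some list. At 48 h 5 regions were listed in both 48 h libraries and neither 0 h library, and 8 the reverse, against 1.06% and 1.70% of all regions (1.82% and 2.91% of the members). At 72 h the numbers were 8 and 4 (2.81% and 0.706% of all), and at 96 h 5 and 7 (1.56% and 0.940%). None was present at all PHx times and absent at 0 h, or the reverse (0.122% and 0.230% of all). As shares of the 275, the 72 h numbers were 2.91% and 1.45% and the 96 h numbers 1.82% and 2.55%. A region in a single list cannot meet these rules, and such regions were 33.5% of the members and 52.5% of all. The shares of members and of all regions therefore rest on unlike denominators, and no excess can be read from them. Most were weak, and the 2 strongest of those listed at 0 h and missing at 48 h are named for that reason. A coding exon of Onecut1 (chr9:74889319-74889962) ranked 38700 and 45465 (0 h), was not listed in either 48 h library, and ranked 47051 and 30348 (72 h) and 66103 and 30275 (96 h). A promoter of Irf2bp1 beside Foxa3 (chr7:19002870-19003311) ranked 44603 and 27018 (0 h), was not listed at 48 h, and ranked 82950 and 78380 (72 h) and 57251 and 32996 (96 h).

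Motif matches in the 200 bases around the summits were set beside those of all recurrent regions. FOXA matches were found in 6 of the 79 regions (7.59%, against 4.76% of all 57473) and ONECUT matches in 4 (5.06% against 3.67%). HNF4 and NR5A2 matches were found in 1 region each (1.27% against 1.41% and 1.53%), C/EBP matches in none (0.181% of all) and AP-1 matches in 3 (3.80% against 7.50%). The 3 AP-1 matches were all at Nr5a2. In all, 15 of the 79 regions held at least 1 match, among them the Hnf4a P2 promoter.

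The promoters of 16 other factors of the hepatic network (Hhex, Gata4, Gata6, Tbx3, Cebpa, Cebpb, Nr0b2, Nr1h4, Rxra, Nr2f1, Nr2f2, Esrra, Ppara, Klf6, Sall4 and Sox9) gave a setting for these values. All 16 were in all 8 lists and 13 were in the top 50000 in each. At 48 h 2 ranked higher and 3 lower, at 72 h 3 and 3, and at 96 h 4 and 2, and over all PHx times 1 ranked higher and none lower. The shares of the coding promoters in all 8 lists, higher first, were 17.0% and 28.2% (48 h), 15.8% and 30.5% (72 h), 13.9% and 20.2% (96 h), and 4.17% and 7.56% over all PHx times. The 1 higher throughout was Tbx3, a T-box transcriptional repressor, which also had the best median rank of the list (499.5). It ranked 1639 and 2564 (0 h), 333 and 666 (48 h), 712 and 241 (72 h), and 270 and 315 (96 h). Gata6 (median rank 4891.5), Rxra (6881), the heterodimer partner of many nuclear receptors, and Ppara (7464.5), a receptor of fatty acid metabolism, came next.

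For each gene the coding promoter with the most similar ranks over the 8 libraries was found among 13598, by the root mean square of the log2 rank ratio. Foxa3 matched Sympk exactly (0), because they share an interval. The nearest for Hnf4a was 5730522E02Rik (0.304), for Foxa1 Gins3 (0.252), for Foxa2 Rgs16 (0.189), for Onecut1 Trpv2 (0.206), for Onecut2 Ankrd11 (0.316), for Prox1 Hspb9 (0.242) and for Nr5a2 Trit1 (0.406). None of the 8 genes had another of the 8 as its nearest.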

How the data were processed

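Peak lists of 8 bulk ATAC-Seq libraries were used. Per the study's methods, the authors trimmed reads, aligned them to mm10 with Bowtie2, removed PCR duplicates and called peaks in each library with MACS2 in the ENCODE pipeline. The deposited columns used were fold enrichment (a ratio to local background), −log10 p and −log10 q, and the deposited display score was not used. The test on read counts that the authors name could not be run, as the lists hold no counts.

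Lines sharing an interval were collapsed to the one with the highest −log10 p. Intervals of all libraries were merged into regions (1 bp overlap) and assigned with GENCODE vM21. Log2 fold enrichment of the regions in all 8 lists was quantile-normalized and fitted by time point with limma 3.58.1 (R 4.3.3), with Benjamini-Hochberg adjustment over all 57473 regions, and tested on simulated data. Ranks were compared by overlap of the libraries, with no test. Motifs were sought with Python 3.11.15. RefSeq promoter windows matched 7 of the 8 genes. Each gene is described with all its promoters and its distal region of best median rank. Regions chosen after their values were seen are said to be so. Some items of the fixed network list are not reported here. The members and lists were chosen with earlier results of these data known. Alternatives covered the scale, scaling, filters, overlap, promoter reach, motif window, each library left out and the replicate block.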

Additional observations from a re-analysis of the deposited data

How the results depend on the processing

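The count of 0 called regions held at each time under all 18 alternatives, with 0 in every fit that left out 1 library. Such a fit leaves a time point with 1 library, which is then assumed to vary like the others. The correlation of replicate 1 minus replicate 2 between time points ran from −0.0553 to 0.125. It cannot show whether libraries of the same replicate number were handled together, which the labels do not state. With the replicate block, limma called 0 regions, and 7 members had an unadjusted p under 0.05 at 48 h, as did 9.88% of all regions. The lists hold no counts, so depth could not be weighed.

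At 48 h the log2 differences of several promoters, all within their errors of 0, changed sign. With −log10 p in place of fold enrichment they were −0.011 for the Foxa1 region (main value 0.22), −0.33 for Foxa2 (0.014), −0.11 for Hnf4a P2 (0.20) and −0.065 for the second Onecut1 promoter (0.19). Using regions in at least 2 lists gave −0.020 for Foxa2 and 0.039 for a second Foxa1 region (−0.13). The 50000 strongest intervals gave −0.013 for Foxa2, and median centring gave 0.092 for the second Foxa1 region. With 1 library left out, the ranges were −0.051 to 0.48 and −0.37 to 0.13 for the first and second Foxa1 regions, −0.24 to 0.26 for Foxa2, −0.26 to 0.0058 for Hnf4a P1, −0.25 to 0.62 for Onecut1 and −0.36 to 0.12 for Onecut2. The causes were not tested. The ranges that follow include the scale of −log10 p, whose unit is not that of fold enrichment. Of the regions named above, one at Onecut2 (−0.45 to 0.13) and the weaker Foxa2 region downstream (−0.45 to 0.11) also changed sign at 48 h. At 72 h both kept their sign, from −1.03 to −0.29 at Onecut2 and from −1.15 to −0.19 at Foxa2. At 96 h the values of these and other named regions kept their sign but varied in size, from −0.26 to −0.020 for the mid-gene intron region of Nr5a2, 0.20 to 0.94 for its AP-1 region, −0.77 to −0.18 for Onecut2, −0.89 to −0.066 for the weaker Foxa2 region and 0.45 to 1.26 for the first Hnf4a region.

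Promoters ranked higher at 96 h numbered 2 by percentile within the list and 1 within 500 bp of the TSS, in place of 0. Distal regions in all 8 lists numbered 22 with the 50000 strongest intervals and 27 where an interval had to cover 50% of the region, in place of 60, both being stricter by construction. Without 72 h replicate 2, which leaves 1 library to compare, 17 regions ranked higher and 36 lower at 72 h. FOXA matches were in 16.5% of the regions in windows of 400 bases (7.66% of all). Some promoter regions gave no value under some settings, in 13 cases.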

Other observations

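The position of the strongest promoter interval differed among libraries at Foxa2, Foxa3, Nr5a2 and Prox1. At Foxa2 its summit lay 42 to 57 bases past the 5′ TSS in both 0 h libraries and in 48 h replicate 2, and 723 to 790 bases past it in the other 5 libraries. At Foxa3 it lay between −824 and −685 bases, upstream on the side of Sympk, in both 0 h libraries, 48 h replicate 1 and 72 h replicate 1, and between −159 and −120 in the other 4. The Nr5a2 5′ promoter was led by an interval 678 bases inside the gene in 0 h replicate 2 and by intervals centred between −309 and −54 bases in the other 7 libraries. At Prox1, whose start sites span positions 190169399 to 190170714, its distance in bases from the first TSS was 487 and 497 (0 h), 163 and −291 (48 h), 1729 and 1219 (72 h), and 461 and 213 (96 h). A change of position within a promoter can occur without a change of its rank, and none of these shifts was tested.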
